A study of Rattus norvegicus with 48 samples.

Results

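The 100 genes with the most reads in the liver of untreated rats were described across the doses of myclobutanil, a triazole fungicide. They were chosen by their mean CPM, reads scaled to 1000000 gene reads, in the 6 vehicle liver libraries, out of 32545 gene IDs. Before ranking, 14 IDs were left out by rule, 10 of them mitochondrial. The mitochondrial IDs were listed at 0 reads in all 48 libraries, and 2 of the other 4 would have ranked among the first 100. Genes ranked 98, 99 and 100 had 1075, 1072 and 1054 CPM in vehicle liver, and the next 2 genes, just outside, had 1038 and 1038 CPM. The vehicle values therefore chose these genes and are given as a description, while tests in liver compare the treated groups with each other.

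Male Crl:CD (SD) Sprague-Dawley rats, 8 to 10 weeks old when dosing began, were gavaged once a day for 14 days. Corn oil at 4 ml/kg was the vehicle for every group and was given alone to the vehicle group. The other groups had 30, 150 or 400 mg/kg myclobutanil. Polyadenylated RNA of whole liver and whole testis was sequenced in 6 libraries per dose and tissue, 48 in all, and only adult males at this end point were studied. Gene reads per library ranged from 31.8 to 49.1 M in liver and from 30.9 to 49.2 M in testis.

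Hepatocytes make most of the proteins of blood plasma, and a small number of messages for secreted proteins and metabolic enzymes takes up a large part of liver messenger RNA. Triazoles inhibit fungal sterol 14-alpha-demethylase, and several of them are known in rodents to activate the nuclear receptors CAR and PXR, which control drug-metabolising enzymes in liver. The share of reads in the most abundant messages matters for reading such data, because a fall in them raises the CPM of every other gene. The files give Ensembl rat IDs without names, and 0 of these IDs occur in the reference table of 47357 genes. No gene is therefore named, the tissue labels were not checked against named markers, and genes are called by their rank in vehicle liver, with 4 given by ID. Ranks are of reads, which grow with transcript length as well as with the number of transcripts.

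The 100 genes held 53.6% ± 1.23 of all gene reads in vehicle liver (SD, n = 6) and less at the top dose. In the vehicle libraries the share ran from 52.0% to 54.7% with a median of 53.9%. At 30 mg/kg it ran from 52.5% to 55.5% with a median of 53.6%. At 150 mg/kg it ran from 51.4% to 54.9% with a median of 53.5%. At 400 mg/kg it ran from 48.5% to 51.4% with a median of 49.5%. Every 400 mg/kg library lay below every library at 30 and 150 mg/kg, while those 2 groups overlapped each other. The gap to 150 mg/kg was narrow, from 51.43% in the 400 mg/kg library 2426 to 51.44% in the 150 mg/kg library 2420.

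**Figure D1:**
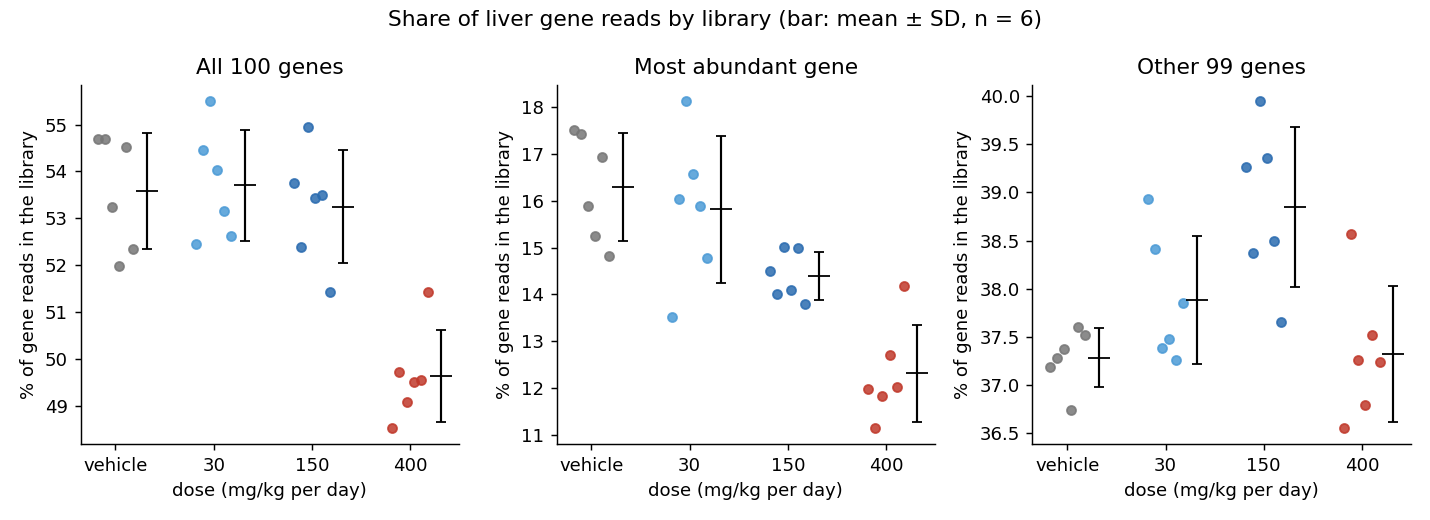
Percent of liver gene reads in all 100 genes (left), in the most abundant gene (middle) and in the other 99 (right), against dose. Points are libraries and bars are means with SD of 6; the vertical axes do not start at 0. All 400 mg/kg libraries lie at or under 51.43% in the left panel.

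Between 30 and 400 mg/kg the mean share fell from 53.7% ± 1.18 to 49.6% ± 0.975 (SD, n = 6), by 4.07 percentage points (exact 2-sided permutation test, p = 0.00216, the smallest possible, adjusted p = 0.00909 over 21 share tests in liver). Between 150 and 400 mg/kg it fell by 3.61 points from 53.2% ± 1.21 (exact permutation p = 0.00216, adjusted p = 0.00909). The difference between 30 and 150 mg/kg was -0.46 points and did not pass the test (exact permutation p = 0.519, adjusted p = 0.574). Set against all reads, with those assigned to no gene included, the last difference was -1.42 points and passed (exact permutation test, adjusted p = 0.0318). This denominator was not planned, and of 9 other settings it was the only 1 in which that difference passed. With TMM-scaled library sizes, a scaling explained with the gene tests, the difference between 400 and 30 mg/kg was -7.56 points, and between 400 and 150 mg/kg -7.55 points. In bulk tissue, fewer cells of a type and less RNA per cell cannot be told apart.

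Depth and mapping differed between these groups. Apart from the deepest library of each group, 400 mg/kg libraries had 38.5 to 40.9 M gene reads and 30 mg/kg libraries 34.4 to 36.2 M, without overlap. The deepest 30 mg/kg library, 2414, had 47.4 M gene reads, more than any 400 mg/kg library, and a share of 52.6%. The 150 mg/kg libraries had 39.8 to 41.6 M on the same basis, close to those at 400 mg/kg. Without the deepest library of each group the difference between 400 and 30 mg/kg was -4.06 points (exact permutation test, 5 against 5, adjusted p = 0.0333). The libraries left do not overlap in depth, so this setting cannot tell depth and dose apart. The part of depth in the fall of the share was not tested, and 2414 is 1 library. Counts for reads without a unique alignment, which go to no gene, were 25.7% ± 1.41 of all reads at 30 mg/kg (SD, n = 6). They were 28.6% ± 0.907 at 150 mg/kg, 29.3% ± 1.245 at 400 mg/kg and 25.9% ± 1.49 in vehicle liver. Whether a read with several alignments was counted once was not checked, which bears on every share of all reads. The part of these counts in the fall of the share was not tested. As a share of all reads, the 100 genes held 31.4% ± 0.999 with vehicle, 31.5% ± 0.601 at 30 mg/kg, 30.1% ± 0.954 at 150 mg/kg and 27.7% ± 0.692 at 400 mg/kg.

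The single most abundant gene was lower at 400 mg/kg than at 30 and at 150 mg/kg. It took 14.8% to 17.5% of gene reads in the vehicle libraries, with a median of 16.4%. The range was 13.5% to 18.1% at 30 mg/kg with a median of 16.0%, and 13.8% to 15.0% at 150 mg/kg with a median of 14.3%. At 400 mg/kg it was 11.2% to 14.2% and the highest of these libraries overlapped the lowest at 30 and 150 mg/kg. By the edgeR quasi-likelihood fit over all genes, its log2 fold change was -0.46 at 400 against 30 mg/kg (SE 0.086, adjusted p = 0.000825) and -0.34 at 400 against 150 mg/kg (SE 0.086, adjusted p = 0.0246). At 150 against 30 mg/kg it was -0.13 (SE 0.086, adjusted p = 0.58). From 30 to 400 mg/kg this gene lost 3.50 points, 86.2% of the net fall of 4.07 points, and the other 99 together differed by -0.56 points. That net sums -6.84 points over 62 genes that were lower and 2.77 points over 38 that were higher. From 150 to 400 mg/kg the most abundant gene differed by -2.08 points, 57.6% of the net fall of 3.61 points, and the other 99 by -1.53 points. Here the net sums -5.12 points over 60 genes and 1.51 points over 40.

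The other 99 genes also held less of what remained. Taken as a share of reads without the most abundant gene, they held 45.0% ± 0.606 at 30 mg/kg, 45.4% ± 1.15 at 150 mg/kg and 42.6% ± 0.742 at 400 mg/kg (SD, n = 6). That share was 44.6% ± 0.757 with vehicle. The difference between 400 and 30 mg/kg was -2.44 points (exact permutation test, adjusted p = 0.00909). This comparison was chosen after the values were seen.

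The share of gene reads was also taken by rank class, and differences between the classes were not tested. The share of the 10 genes at the top went from 29.5% ± 1.52 at 30 mg/kg to 25.9% ± 0.784 (SD, n = 6) at the top dose (exact permutation test, adjusted p = 0.0114). Most of that difference was the first gene, with -3.50 points, and the 9 genes ranked 2 to 10 differed by -0.13 points. Ranks 11 to 50 held 16.9% ± 0.495 at 30 mg/kg, 17.4% ± 0.576 at 150 mg/kg and 16.1% ± 0.642 at 400 mg/kg. For these 40 genes the fall from 150 to 400 mg/kg passed (-1.29 points, exact permutation test, adjusted p = 0.00909), and the difference between 30 and 400 mg/kg did not (-0.78 points, exact permutation test, adjusted p = 0.0579). Ranks 51 to 100 held 7.29% ± 0.251 at 30 mg/kg and 7.64% ± 0.235 at 400 mg/kg, a difference of 0.35 points that did not pass (exact permutation test, adjusted p = 0.0682).

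Shares of gene reads sum to a fixed total, so the fall of the 100 genes and the rise of all others by 4.07 points are the same measurement, and the tests below the first 100 are not independent of it. The next 900 genes went from 24.7% ± 0.559 to 25.9% ± 0.675 of gene reads between 30 and 400 mg/kg (SD, n = 6, exact permutation test, adjusted p = 0.0253). Those ranked over 1000 went from 21.05% ± 0.738 to 23.6% ± 0.446 (exact permutation test, adjusted p = 0.00909), and their libraries did not overlap. The 14 IDs left out by rule went from 0.529% ± 0.0686 to 0.828% ± 0.160 (exact permutation test, adjusted p = 0.0114). After TMM scaling the next 900 genes had more calls lower than higher, 161 against 75, although their unscaled share rose. In unscaled reads, the 10 other genes with the largest gains added 1.14 points and the 100 with the largest gains 2.55 points. The single largest gain outside the 100 genes was 0.286 points.

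**Figure D2:**
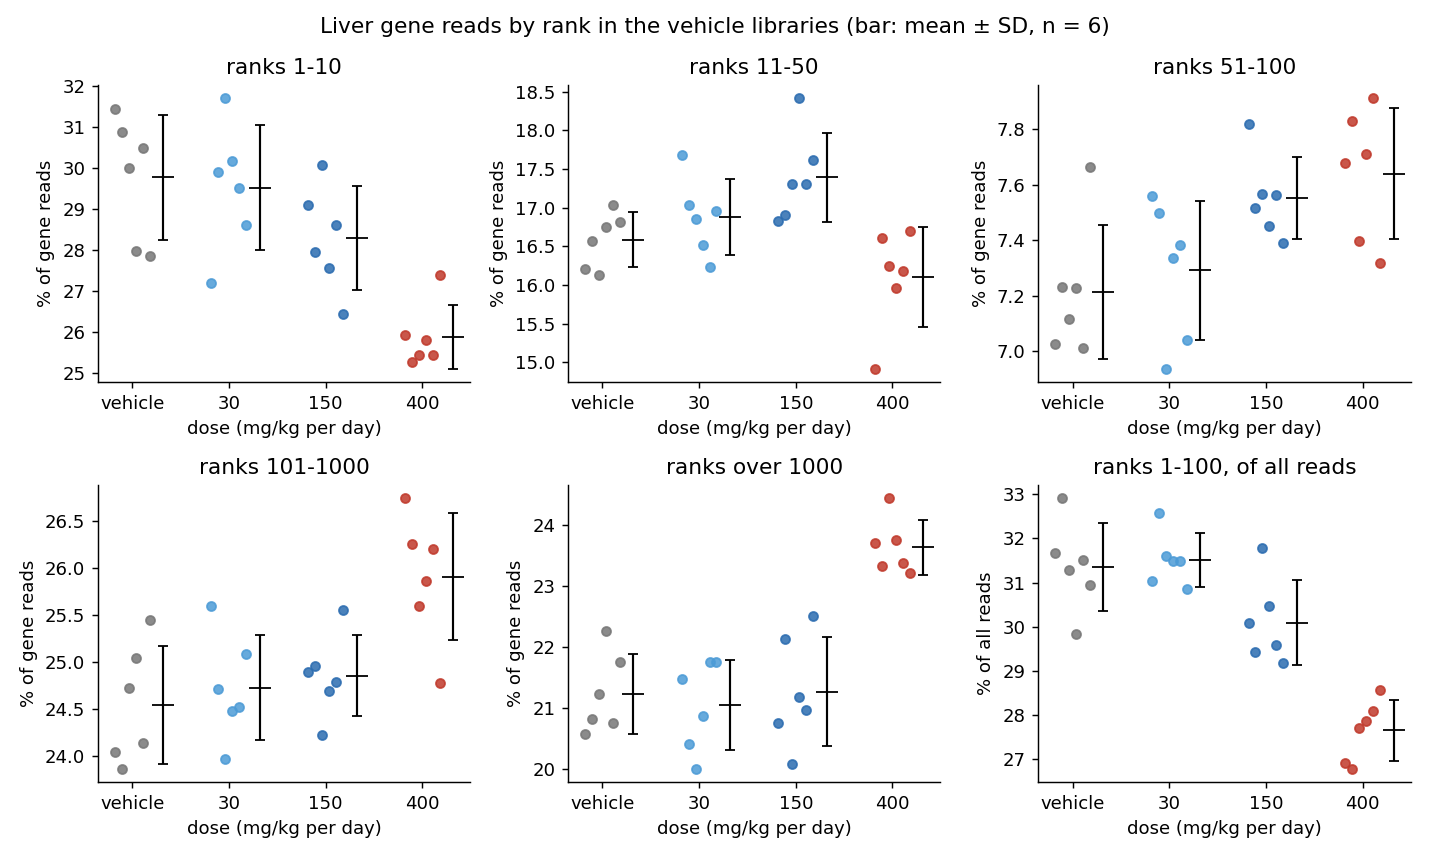
Percent of liver gene reads by rank class in the vehicle libraries, against dose, with ranks 1 to 100 as a share of all reads in the last panel. Points are libraries and bars are means with SD of 6; the axes differ and do not start at 0. Ranks over 1000 held 23.2% to 24.4% at 400 mg/kg, above all other libraries.

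The smallest number of genes that held 50% of gene reads was 62 to 80 in vehicle liver with a median of 67. It was 57 to 78 at 30 mg/kg with a median of 69.5, and 61 to 83 at 150 mg/kg with a median of 68.5. At 400 mg/kg it was 79 to 94 with a median of 93, and it overlapped the groups given vehicle or 150 mg/kg but not the 30 mg/kg group. In testis, where 666 to 820 genes were needed over all doses, the medians were 754.5 with vehicle and 743.5 at 400 mg/kg.

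The first 100 genes were not the same in every dose group. Of the 100 genes, 96 were also among the first 100 at 30 mg/kg, 91 at 150 mg/kg and 85 at 400 mg/kg. The vehicle libraries chose the list, so their own count is 100 by the choice and other groups could not exceed it. The 15 that had left at 400 mg/kg ranked 70 to 100 in vehicle liver with a median of 86. The 15 that entered ranked as far down as 8657 in vehicle liver, with a median of 130. Genes close to rank 100 change places easily, so these counts describe the lists and were not tested.

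Single genes were tested in 1 edgeR fit over all 24 liver libraries and 13275 genes, with TMM scaling, and all 100 genes passed its filter. At 400 against 30 mg/kg, 37 of the 100 genes were called at an adjusted p under 0.05, 4 higher and 33 lower, where 14.7% of all genes tested were called, 7.47% higher and 7.22% lower. Among the next 900 genes by rank, 236 were called, 75 higher and 161 lower. The median log2 fold change was -0.17 over the 100 genes, -0.05 over the next 900 and -0.01 over all genes tested. TMM factors raised the scale of 400 mg/kg libraries by 0.099 on the log2 scale over those at 30 mg/kg. Without scaling factors 41 of the 100 genes were called, 16 higher and 25 lower, where 21.01% of all genes tested were called, so that the balance of directions depended on the scaling. With the log2 total of gene reads as a covariate, the fit called 32 of the 100 genes, 4 higher and 28 lower, where 12.1% of all genes tested were called.

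Most changes in these genes were small. The 33 that fell had log2 fold changes of -2.87 to -0.17 with a median of -0.42, and together they changed by -6.17 points of gene reads between 30 and 400 mg/kg. The 4 that rose had 0.39 to 1.13 and together gained 0.867 points. Of the 37, 12 changed at least 1.5-fold and 7 at least 2-fold. The same counts were not taken over all genes tested, so these sizes cannot be called particular to the 100 genes. The 63 not called differed by 1.24 points in sum. In CPM, the groups did not overlap for 16 genes that were lower at 400 mg/kg and 6 that were higher, where 0.919% and 7.47% of all genes tested did so.

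**Figure D3:**
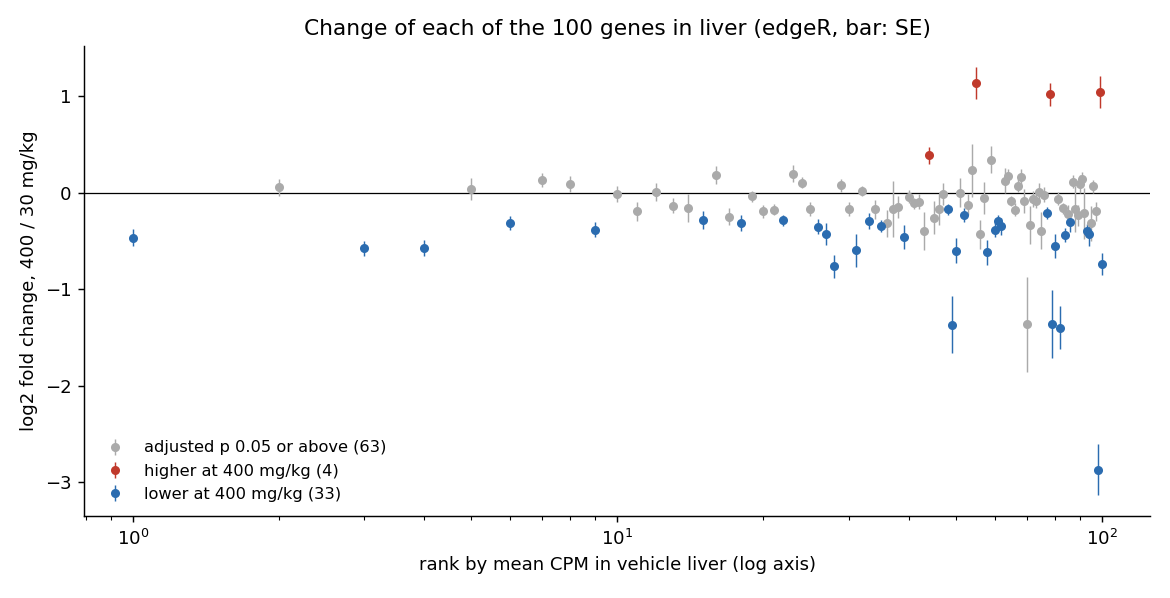
Log2 fold change at 400 against 30 mg/kg in liver for each of the 100 genes (TMM-scaled edgeR fit, bars are SE), against rank in vehicle liver on a log axis. Blue marks the 33 called lower, red the 4 called higher and grey the 63 not called; all 4 called higher rank below the first 40.

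By rank, 5 of the first 10 genes were called, all lower at 400 than at 30 mg/kg. Of ranks 11 to 50, 13 fell and 1 rose. Of ranks 51 to 100, 15 fell and 3 rose. The third-ranked gene went from 1.46% ± 0.187 to 1.05% ± 0.0778 of gene reads (SD, n = 6; log2 fold change -0.58, SE 0.079, edgeR adjusted p = 3.22e-05). The gene ranked 4 went from 1.32% ± 0.0788 to 0.947% ± 0.0529 (-0.58, SE 0.082, edgeR adjusted p = 5.76e-05). The gene ranked 2 did not pass, with 3.97% ± 0.158 at 30 mg/kg and 4.42% ± 0.194 at 400 mg/kg (0.06, SE 0.089, edgeR adjusted p = 0.711). Its difference of 0.46 points was the largest gain among the 100 genes in unscaled reads.

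The 4 genes at the ends of the range of called fold changes are given in full. ENSRNOG00000043131, ranked 98, fell most. It had 885 to 1257 CPM with vehicle (median 1073) and 705 to 1592 CPM at 30 mg/kg (median 1362). It had 403 to 951 CPM at 150 mg/kg (median 684) and 85.1 to 275 CPM at 400 mg/kg (median 200). All 400 mg/kg libraries lay below those of every other group. Its log2 fold change was -2.87 at 400 against 30 mg/kg (SE 0.26, edgeR adjusted p = 3.30e-07), 7.29-fold lower, and -1.98 at 400 against 150 mg/kg (SE 0.25, adjusted p = 0.000146). At 150 against 30 mg/kg it did not pass (-0.89, SE 0.25, edgeR adjusted p = 0.153).

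ENSRNOG00000055909, ranked 82, fell from 965 to 1235 CPM at 30 mg/kg (median 1144) to 234 to 829 CPM at 400 mg/kg (median 421). It had 994 to 1457 CPM with vehicle (median 1342) and 488 to 1064 CPM at 150 mg/kg (median 888). The 30 and 400 mg/kg groups did not overlap, and those at 150 and 400 mg/kg did. The log2 fold change was -1.40 against 30 mg/kg (SE 0.23, edgeR adjusted p = 0.000297) and -0.98 against 150 mg/kg (SE 0.22, edgeR adjusted p = 0.0147).

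ENSRNOG00000024016, ranked 55, rose most. It had 1232 to 2738 CPM with vehicle (median 1911) and 1742 to 3593 CPM at 30 mg/kg (median 2908). It had 3794 to 4888 CPM at 150 mg/kg (median 4442) and 5466 to 7104 CPM at 400 mg/kg (median 6760). No 2 of the 3 treated groups overlapped. The log2 fold change was 1.13 at 400 against 30 mg/kg (SE 0.17, edgeR adjusted p = 8.51e-05), 2.19-fold higher. It did not pass at 400 against 150 mg/kg (0.48, SE 0.17, adjusted p = 0.0928) or at 150 against 30 mg/kg (0.65, SE 0.17, adjusted p = 0.111). Its rank in the group mean went from 55 with vehicle to 37, 26 and 16.

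ENSRNOG00000032560, ranked 99, had 730 to 1406 CPM with vehicle (median 1081) and 1195 to 2333 CPM at 30 mg/kg (median 1551). It had 2157 to 3043 CPM at 150 mg/kg (median 2678) and 3192 to 4132 CPM at 400 mg/kg (median 3679). The 400 mg/kg libraries lay above all others, and 30 and 150 mg/kg overlapped. The log2 fold change was 1.04 at 400 against 30 mg/kg (SE 0.16, edgeR adjusted p = 0.000197). At 400 against 150 mg/kg it was 0.36 (SE 0.16, edgeR adjusted p = 0.209).

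**Figure D4:**
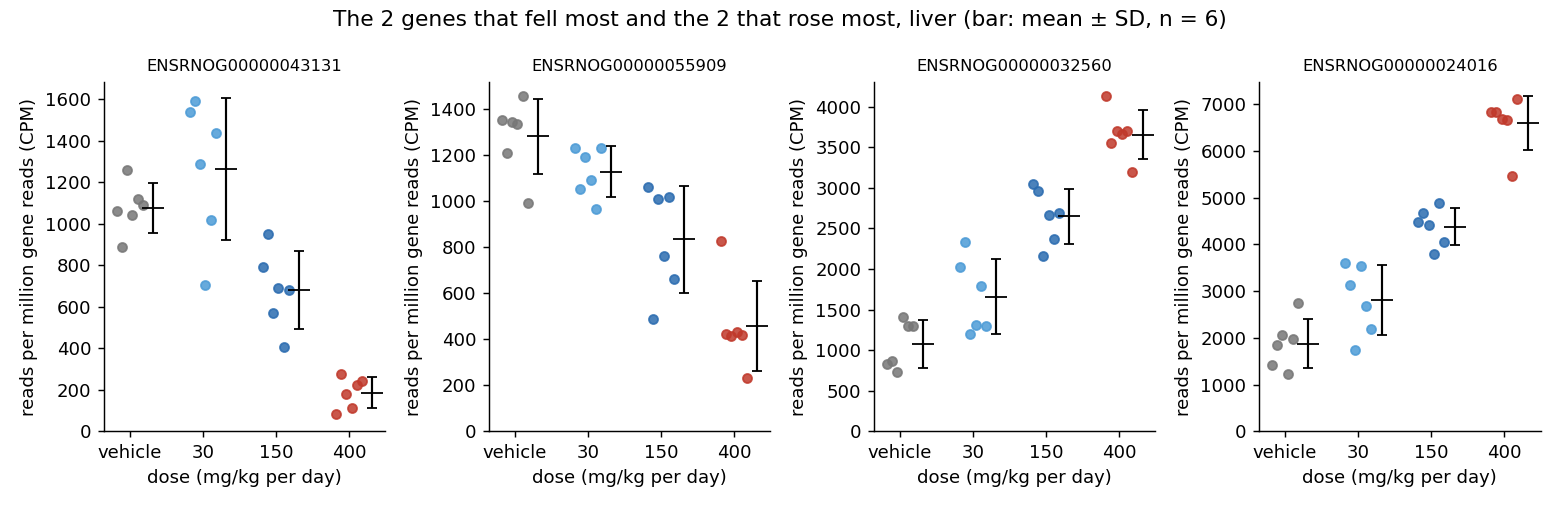
CPM in each liver library against dose for the 2 of the 100 genes that fell most and the 2 that rose most at 400 against 30 mg/kg. Points are libraries and bars are means with SD of 6; ENSRNOG00000043131 is at or under 275 CPM in every 400 mg/kg library.

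At 400 against 150 mg/kg, 29 of the 100 genes were called, 1 higher and 28 lower, where 5% of all genes tested were called, 2.65% higher and 2.35% lower. Among the next 900 genes, 107 were called. The 28 that fell had log2 fold changes of -1.98 to -0.21 with a median of -0.41, and the 1 that rose, ranked 78, had 0.61. This comparison shares its 400 mg/kg libraries with the one against 30 mg/kg. Without the deepest library of each group the fit called 19, of which 1 was higher and 18 were lower, and it shared 18 with the 29, where 2.97% of all genes tested were called. In CPM the groups did not overlap for 8 genes that were lower and 3 that were higher, against 0.294% and 4.34% of all genes tested.

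At 150 against 30 mg/kg, edgeR called 0 of the 100 genes, where 0.151% of all genes tested were called, 0.113% higher and 0.0377% lower. An unadjusted p under 0.05 was found for 18 of the 100 and for 1591 of all 13275 genes, or 11.98%. With DESeq2, 2 were higher and 1 was lower, where 0.896% of all genes tested were called. With limma-voom the count was 0, where 0.188% were called. The CPM of the groups did not overlap for 1 gene that was higher and for 0 that were lower, against 0.256% and 0.301% of all genes tested. The log2 fold changes ran from -0.89 to 0.68. In unscaled CPM, the group mean rose from 30 to 150 to 400 mg/kg for 25 of the 100 genes and fell at both steps for 31. Among the next 900 genes the unscaled mean rose at both steps for 331 and fell for 190. Their TMM-scaled calls at 400 against 30 mg/kg went the other way, 75 higher and 161 lower. These orders therefore depend on the scaling, were not counted over all genes and were not tested.

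The 100 genes differed in how much they varied between libraries of a group. The coefficient of variation of CPM had a median of 10.2% at 30 mg/kg and 9.97% at 400 mg/kg, and was under 10% for 50 genes in each of those groups. It was above 25% for 16 genes at 30 mg/kg and for 11 at 400 mg/kg. The highest value, 74.6%, was that of the gene ranked 70 at 400 mg/kg. That gene went from 1497 ± 779 to 613 ± 458 CPM between 30 and 400 mg/kg (SD, n = 6) and did not pass (log2 fold change -1.36, SE 0.49, edgeR adjusted p = 0.0655).

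In testis, a tissue that the choice of genes did not use, these genes held under 1% of gene reads. The share was 0.780% ± 0.0174 with vehicle (SD, n = 6), 0.765% ± 0.0107 at 30 mg/kg, 0.793% ± 0.0313 at 150 mg/kg and 0.763% ± 0.0105 at 400 mg/kg. It ran from 0.752% to 0.839% over the 24 libraries, and all groups overlapped. Against vehicle the difference was -0.017 points at 400 mg/kg (exact permutation p = 0.0649, adjusted p = 0.166 over 3 tests), 0.013 points at 150 mg/kg (exact permutation p = 0.411, adjusted p = 0.411) and -0.015 points at 30 mg/kg (exact permutation p = 0.11, adjusted p = 0.166). None passed with all libraries. Without vehicle library 2404, the differences at 400 mg/kg (-0.022 points) and at 30 mg/kg (-0.021 points) passed (exact permutation test, adjusted p = 0.0325 for each). Mapping also differed among testis libraries. Reads set aside for low alignment quality made up 2.75% to 2.81% of all reads in vehicle libraries 2403 to 2407. Vehicle library 2408 had 2.53%. Libraries of the 150 and 400 mg/kg groups ran from 2.52% to 2.57%, and those of the 30 mg/kg group from 2.52% to 2.84%. The part of this difference in the testis shares, and in the genes called in testis, was not tested.

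Most of the 100 genes were low in testis. In vehicle testis 50 had under 1 CPM, 38 had 1 to 100 CPM and 12 had over 100 CPM. Since high liver CPM chose these genes, a higher level in liver than in testis is largely set by the choice. The gene ranked 3 had 1902 ± 194 CPM in vehicle testis (SD, n = 6) beside 14055 CPM in vehicle liver. The gene ranked 67 had 1536 ± 30.9 CPM there beside 1540 CPM in liver. With those ranked 40, 76 and 93, these 2 made up 72.6% of the reads of the 100 genes in vehicle testis. The most abundant liver gene had 1.29 CPM there, and ENSRNOG00000043131 was listed at 0 reads in all 24 testis libraries.

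**Figure D5:**
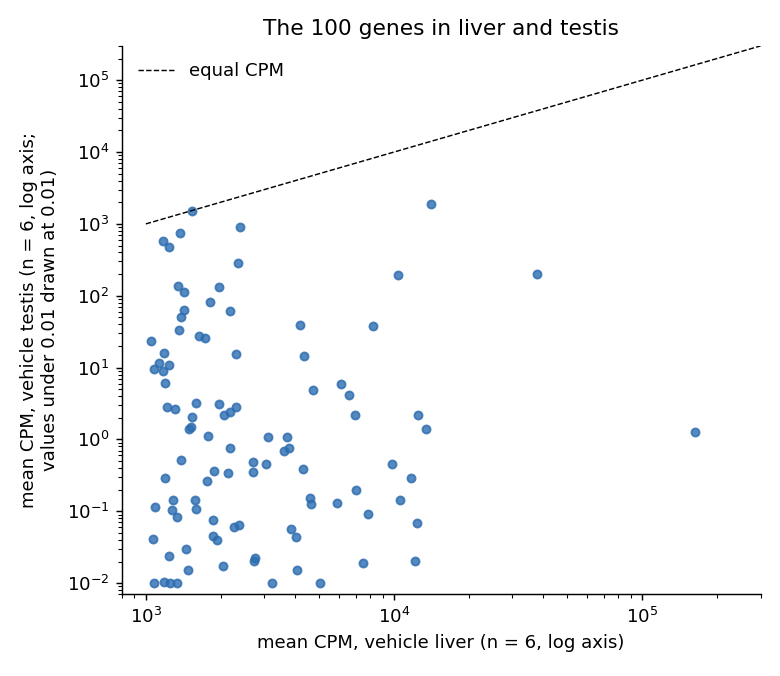
Mean CPM of each of the 100 genes in vehicle liver (horizontal, log axis) and vehicle testis (vertical, log axis), n = 6 libraries each; the dashed line marks equal CPM. The genes were chosen for high liver CPM, and in testis 12 lie over 100 CPM, 38 at 1 to 100 CPM and 50 under 1 CPM.

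Of the 100 genes, 66 passed the filter in testis, and 3 of them were called at 400 mg/kg against vehicle, 2 higher and 1 lower, where 3.32% of all 17261 genes tested were called, 1.85% higher and 1.47% lower. The gene ranked 18 went from 5.84 ± 0.582 to 7.36 ± 0.729 CPM (SD, n = 6; log2 fold change 0.34, SE 0.082, edgeR adjusted p = 0.0252). In liver the same gene was lower at 400 against 30 mg/kg (log2 fold change -0.31, edgeR adjusted p = 0.0129). That baseline differs from the vehicle used in testis, and the tissues were not tested against each other. The genes ranked 74 and 88, at 0.513 and 2.81 CPM in vehicle testis, had log2 fold changes of 0.65 and -0.56. The count was 0 without vehicle 2405, 400 mg/kg 2421 or 400 mg/kg 2423. It was 1 without vehicle 2404, vehicle 2408, 400 mg/kg 2424 or 400 mg/kg 2425. Vehicle testis libraries 2407 and 2408 carry a second label that names myclobutanil, and without both the count was 1. At 150 and 30 mg/kg edgeR called 0 of the 66, where 0.0232% and 0.00579% of all genes tested were called. An unadjusted p under 0.05 was found for 5 of the 66 at 150 mg/kg (7.58%, beside 6.26% of all genes tested) and for 7 at 30 mg/kg (10.6%, beside 10.5%).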

How the data were processed

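Each library was deposited as raw counts of reads for every Ensembl rat gene ID. CASAVA 1.8, HISAT2 and HTSeq 0.6.1 were used, per the submitters' processing notes. The genome build and the strand setting were not given in the sources used here. Lines for reads of no gene, 5 per file, were left out of totals and fits. They made up 39.8% to 46.1% of all counts in liver and 34.9% to 36.9% in testis. Reads with several alignments count for no gene, so genes with near-identical copies are less certain. Lists of gene symbols and markers chosen for the study could not be applied to unnamed IDs. Libraries were grouped by title and dose label. Every title number is shared by a liver and a testis library of the same dose, so a number may stand for an animal. The labels do not say that libraries come from separate animals, so p-values rest on the spread among libraries, which may be technical. Within groups, chi-square per degree of freedom was 27.6 to 88.4 in liver and 6.59 to 36.6 in testis, so no library was a copy of another.

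Shares used totals of gene reads. Gene tests used R 4.3.3 and edgeR 4.0.16 (low counts removed by filterByExpr, TMM factors, robust quasi-likelihood fit, all 24 libraries of a tissue, Benjamini-Hochberg adjustment). The steps were also run on simulated counts with randomly chosen genes changed in either direction. A fall of the most abundant genes was not built in, so that run does not check the scaling. CPM values are unscaled and fold changes TMM-scaled. DESeq2 1.42.0 and limma-voom 3.58.1 were alternatives. Genes given by ID are the 2 highest and 2 lowest fold changes at 400 against 30 mg/kg among the 100 genes called with every 400 mg/kg library on the same side of the 30 mg/kg mean. Genes given by rank were singled out after their values were seen. The genes and tests were chosen with earlier results of these data known.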

Additional observations from a re-analysis of the deposited data

Results flagged for a closer look

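Dixon's test was made 28 times, on the share of the 100 genes in the 8 groups and on the most abundant gene and the 4 genes given by ID in the 4 liver groups. In 2 of them 1 library stood apart from its group of 6, where chance marks about 1 in 20. ENSRNOG00000055909 was highest in the 400 mg/kg liver library 2421, at 829 CPM, still below every 30 mg/kg library. ENSRNOG00000024016 was lowest in the 400 mg/kg liver library 2425, at 5466 CPM, still above every library at lower doses.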

How the results depend on the processing

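In liver, the share of the 100 genes stayed lower at 400 mg/kg than at 30 and at 150 mg/kg, with an adjusted p under 0.05, in all 9 other settings and without each of the 12 libraries. The settings gave differences of -7.56 to -2.44 and of -7.55 to -2.43 points, the largest with TMM library sizes. The smallest came without the most abundant gene against 30 mg/kg and with all reads as the denominator against 150 mg/kg. At 150 against 30 mg/kg the share passed in 1 setting, with all reads as the denominator (-1.42 points). Calls were 32 to 44 of the 100 genes at 400 against 30 mg/kg over 8 settings. At 400 against 150 mg/kg they were 19 to 41, with 19 without the deepest library of each group. At 150 against 30 mg/kg DESeq2 called 3, and leaving out 1 library gave 0 to 1. In testis, leaving out 1 library gave share differences of -0.0224 to -0.0131 points at 400 mg/kg and -0.0205 to -0.0112 points at 30 mg/kg against vehicle, and 0 to 4 called genes. The main fit at 400 mg/kg called 3 of 66 genes in testis, where 3.32% of all genes tested were called. DESeq2 called 5 there, and 1 was called without vehicle 2407 and 2408. The cause was not tested. The 4 genes given by ID kept their direction and call in all 8 settings and without each of 12 libraries. No paired analysis was possible because the dose groups share no title number.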
